A study of Mus musculus with 3 samples.

Results

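Interferon-stimulated genes were followed across the cell classes of the mouse suprarenal aorta in 3 single-cell RNA libraries. The list held 43 genes, given by name, of which 42 had a row among the 27998 genes of the count matrices. Mx2 was not analysed here.

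The aneurysm library pooled the aortas of 4 C57Bl/6 Apoe-/- mice that had a Western diet and cigarette smoke for 16 weeks and a measurable dilatation of the aorta. The room air library pooled 5 C57Bl/6 Apoe-/- mice on the Western diet for 16 weeks, breathing room air. The control library pooled 5 C57Bl/6 mice on chow, with an intact Apoe gene. Apoe encodes the apolipoprotein that clears remnant lipoproteins, and mice without it develop high cholesterol and atherosclerosis on a Western diet. From each pool, CD45+CD31- leukocytes and CD45-CD31+ endothelial cells were sorted together, so the balance of the 2 sorts set the share of endothelial cells. The labels also count a smoke group, which was not analysed here.

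Room air against control therefore joins genotype and diet, and aneurysm against room air joins smoke with the selection of dilated aortas. With 1 library a group, no test between groups could be made, and what differs between pools, cell preparation and sequencing cannot be told apart from the groups.

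Interferons are cytokines released when a cell senses viral or misplaced nucleic acid. Type I interferons act through IFNAR1 and IFNAR2 and the kinases JAK1 and TYK2 to form ISGF3, a complex with STAT2 and IRF9 that binds the interferon-stimulated response element (ISRE). Interferon gamma, made chiefly by T and NK cells, acts through IFNGR1 and IFNGR2 on genes with the gamma-activated site (GAS), and is the stronger inducer of many guanylate-binding and immunity-related GTPases. In atherosclerotic aortas, macrophages with high levels of Ifit, Isg15 and related genes have been described as a subset of their own.

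The members were read by role: the transmitters Irf7, Irf9 and Stat2; 6 sensors and effectors of foreign nucleic acid; 3 genes of the ISG15 system; 4 Ifit genes; 5 genes of the 2'-5' oligoadenylate synthetase (Oas) family; 9 other antiviral effectors; 8 GTPases; and 4 further induced genes. A core list of 17 members (the Ifit and Oas genes, Isg15, Usp18, Rsad2, Cmpk2, Mx1, Ifi44, Irf7 and Rtp4) served for summed levels and for counting cells with the response.

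The DNA letters shared by the members were looked up in the RefSeq promoter windows of GRCm38.p6, which run from 250 bases before to 50 bases after each start. The ISRE letters, GAAA and GAAA with any 2 bases between them, were searched on both strands, as were the GAS letters TTCNNNGAA, which read alike on both. Of the 34 members with a window, 22 (64.7%) held the ISRE letters, against 1079 of 27025 genes (3.99%) in the whole table. The GAS letters stood in 9 of the 34 (26.5%), against 2582 of 27025 (9.55%). Among the GTPases, 6 of 7 held the ISRE letters and 3 of 7 (Gbp5, Gbp7 and Igtp) the GAS letters, and among the core genes the counts were 7 and 2 of 13. A match describes the letters only. No window was in the table for Oas2, Mx1, Mx2, Usp18, Rtp4, Dhx58, Zbp1, Iigp1 and Parp14. The stretches from 200 to 41 bases before the start are printed for 3 Ifit genes, Isg15 and Rsad2, which belong to the core list, and for Gbp7, whose level in macrophage-like cells differed between libraries in the other direction. Each is given 5' to 3' in the sense of the gene, with capitals marking every base inside an ISRE match on either strand.
Ifit1 chr19:34640689-34640848 plus strand: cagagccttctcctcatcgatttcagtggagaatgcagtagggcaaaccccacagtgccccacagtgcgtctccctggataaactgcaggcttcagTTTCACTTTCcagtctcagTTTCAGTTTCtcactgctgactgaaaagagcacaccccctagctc
Ifit3 chr19:34583329-34583488 plus strand: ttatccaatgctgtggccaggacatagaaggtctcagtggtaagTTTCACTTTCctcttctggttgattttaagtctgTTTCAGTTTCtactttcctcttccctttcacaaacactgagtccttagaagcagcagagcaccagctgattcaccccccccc
Ifit3b chr19:34607757-34607916 plus strand: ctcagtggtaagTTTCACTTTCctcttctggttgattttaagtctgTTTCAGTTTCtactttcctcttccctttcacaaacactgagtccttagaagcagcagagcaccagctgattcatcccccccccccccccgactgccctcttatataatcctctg
Isg15 chr4:156200859-156201018 minus strand: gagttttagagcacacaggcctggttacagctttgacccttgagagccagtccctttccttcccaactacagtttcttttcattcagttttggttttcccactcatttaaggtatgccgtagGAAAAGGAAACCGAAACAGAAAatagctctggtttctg
Rsad2 chr12:26456493-26456652 minus strand: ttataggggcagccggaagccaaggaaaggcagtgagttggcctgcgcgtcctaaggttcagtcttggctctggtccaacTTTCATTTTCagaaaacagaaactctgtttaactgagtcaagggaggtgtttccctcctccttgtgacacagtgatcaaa
Gbp7 chr3:142530136-142530295 plus strand: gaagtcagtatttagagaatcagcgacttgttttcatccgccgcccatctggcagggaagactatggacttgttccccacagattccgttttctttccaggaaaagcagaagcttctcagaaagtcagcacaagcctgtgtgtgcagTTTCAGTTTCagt
Ifit1, Ifit3 and Ifit3b held 2 separate matches each, Isg15 held 3 matches that overlap into 1 run, and Rsad2 and Gbp7 held 1. Ifit3 and Ifit3b, neighbours on chromosome 19, shared a run that holds both matches, at different distances from the start. Their transcripts are also near-identical, so the split of UMIs between these paralogs is uncertain, and they were counted as 1 gene wherever cells were called.

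The libraries held 2842, 1851 and 782 cell barcodes in aneurysm, room air and control, with 16698309, 9998517 and 2568192 UMIs (unique molecular identifiers, 1 per captured transcript) and medians of 4476, 3884 and 2681 UMIs a cell. The labels state 2685, 1736 and 738 cells, and a viability of 94%, 91% and 73%. After filters, 5369 of 5475 cells remained, 2775, 1821 and 773 in the 3 libraries. Apoe was at 12.9 CPM (UMIs of a gene per 1000000 UMIs) in aneurysm and 17.1 CPM in room air, against 10539.7 CPM in control, with the control library far above both Apoe-/- libraries. Between libraries, 5 barcodes were shared by aneurysm and room air and 4 by room air and control. Cells were clustered without the members, the other interferon genes and Apoe, and clusters were named from marker genes. Macrophage-like cells (669, 566 and 310) joined cluster 2 (Cd209f, Lyve1, Folr2, Cd163), cluster 5 (Ccl8, Nxpe5, Cx3cr1), cluster 6 (Gpnmb, Spp1, Trem2) and cluster 12 (Ccl12, Clec4b1, Adgre1). Cluster 2 held 281 of the 310 control cells, but 114 of 669 in aneurysm and 59 of 566 in room air, so class levels of macrophage-like cells also carry this difference in makeup. T-cell-like cells (551, 397 and 91) joined cluster 13 (Dapl1, Lef1), cluster 14 (Gzmk, Nkg7, Cd8a) and cluster 21 (Izumo1r, Cd4), and 87 of the 91 control cells were in cluster 13.

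Markers of other lineages in a class gave an estimate of free RNA in its droplets: 35.3%, 34.6% and 16.4% of the library mixture in macrophage-like cells of aneurysm, room air and control, and 7.24%, 19.7% and 4.6% in T-cell-like cells. In cluster 5 the estimate reached 119% in aneurysm and 103% in room air, that is, markers of other lineages were as common there as in the library as a whole.

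The core genes were highest in monocyte-like or neutrophil-like cells, while the dendritic cell-like classes were not all above the lymphocytes. In aneurysm, their summed level was 1128 (1079 to 1179) CPM in monocyte-like and 1093 (1020.1 to 1170.3) CPM in neutrophil-like cells, brackets giving exact Poisson 95% intervals that cover counting error only, here and for the ratios and shares that follow. Next came macrophage-like cells at 769 (746 to 792) CPM and cDC2-like cells (conventional type 2 dendritic cells) at 707 CPM. From cDC1-like cells (579 CPM) down through mature dendritic cell-like, endothelial-like, gamma-delta T-like, T-cell-like, ILC2-like and NK-like to B-cell-like cells (205 CPM), each class overlapped its neighbour in the order within counting error. In room air, neutrophil-like cells stood first at 1558 (1454 to 1668) CPM. Macrophage-like, monocyte-like, endothelial-like and cDC2-like cells followed at 874, 864, 858 and 855 CPM, neighbours that overlapped, and T-cell-like cells lay below them at 722 CPM. The cDC1-like cells of room air, at 596 CPM, overlapped T-cell-like cells. Mature dendritic cell-like cells were lowest at 285 CPM, after NK-like (465 CPM), B-cell-like (358 CPM) and gamma-delta T-like cells (339 CPM), the last overlapping them. In control, monocyte-like cells stood first at 858 (731 to 1001) CPM, then macrophage-like cells at 425 (389 to 464) CPM. T-cell-like, endothelial-like and B-cell-like control cells had 278, 263 and 205 CPM, overlapping in that order. Below them, cDC1-like control cells had 109 (61 to 180) CPM, overlapping the B-cell-like cells. Monocyte-like cells were thus at or near the top in the aneurysm and control libraries. These orders are of levels before free RNA was subtracted, and its estimate in neutrophil-like cells was 41.6% in aneurysm and 51% in room air. With it subtracted, room air neutrophil-like cells stayed first at 1152 CPM. Endothelial-like (716 CPM), monocyte-like (697 CPM) and cDC2-like cells (656 CPM) then stood above macrophage-like (599 CPM) and T-cell-like cells (564 CPM).

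The GTPases followed another order. Endothelial-like cells had 511 CPM in the aneurysm, 635 CPM in the room air and 581 CPM in the control cells, and T-cell-like cells 368 CPM in the aneurysm, 572 CPM in the room air and 512 CPM in the control cells. NK-like cells had 402 CPM in the aneurysm, 393 CPM in the room air and 361 CPM in the control cells. Macrophage-like cells, in contrast, had 222 CPM in the aneurysm, 260.4 CPM in the room air and 209 CPM in the control cells, and cDC1-like cells 105 CPM in the aneurysm, 158 CPM in the room air and 43.6 CPM in the control cells. Endothelial-like, T-cell-like and NK-like cells were above macrophage-like cells in all 3 libraries.

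**Figure D1:**
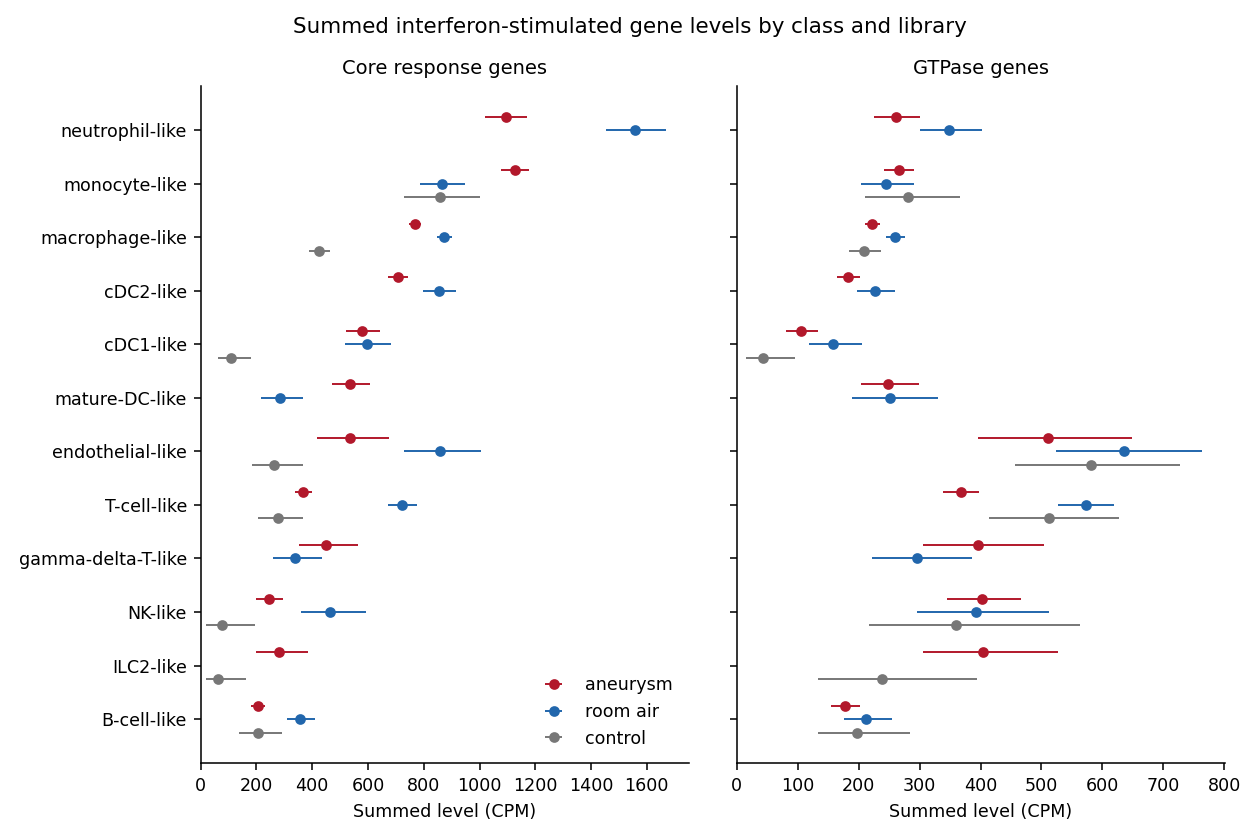
Summed level (CPM) of the core genes and of the GTPases by cell class in the aneurysm, room air and control libraries, with exact Poisson 95% intervals. The core genes peak in monocyte-like and neutrophil-like cells, while the GTPases peak in endothelial-like cells, at 511, 635 and 581 CPM.

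Single members had their own peaks among the classes of at least 25 cells. Plasmacytoid dendritic cell-like cells (21, 8 and 1 cells in aneurysm, room air and control) were under that size in each library and were not ranked. The same held for fibroblast-like (10, 8 and 1) and plasma-cell-like cells (14, 20 and 0). Irf7, the transcription factor that amplifies type I interferon production, was highest in cDC1-like cells of aneurysm (254 CPM) and room air (161 CPM), and in monocyte-like cells of control (191 CPM). Irf9, the DNA-binding subunit of ISGF3, peaked at 85.3 CPM in aneurysm and 95.1 CPM in room air, also in cDC1-like cells, and at 68.3 CPM in B-cell-like cells of control. Stat2 was highest in cDC1-like cells of aneurysm and room air, at 44.3 and 37.5 CPM. Ifi35 was highest in cDC1-like cells of all 3 libraries, at 182, 170 and 116 CPM in aneurysm, room air and control.

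Oas1a, an oligoadenylate synthetase, and Zbp1, a sensor of Z-form nucleic acid that can trigger necroptosis, peaked in monocyte-like cells. Oas1a had 134 CPM in the aneurysm, 129 CPM in the room air and 79.4 CPM in the control cells (235, 68 and 15 UMIs) there. Zbp1 had 153 CPM in the aneurysm, 114 CPM in the room air and 132 CPM in the control cells (268, 60 and 25 UMIs). Both were highest in monocyte-like cells in each library. Oasl2 and Oas3 were highest there in aneurysm and control and in neutrophil-like cells of room air, while Oas2 and Oasl1 peaked in other classes in all 3 libraries. Isg15 (a ubiquitin-like modifier) peaked in neutrophil-like cells of aneurysm and room air at 194 and 242 CPM, and in monocyte-like cells of control at 132 CPM. Rtp4 peaked in the same classes, at 233, 261 and 159 CPM.

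Among the ranked classes, Bst2 (tetherin, which holds budding virions at the cell surface) was highest in endothelial-like cells of all 3 libraries, at 496, 412 and 434 CPM in aneurysm, room air and control. The GTPases Iigp1 and Gbp3 were highest there too, at 145, 94.8 and 139 CPM for Iigp1. Ifi47, an immunity-related GTPase, was highest in NK-like cells of aneurysm (177 CPM) and room air (250.3 CPM) and in T-cell-like cells of control (251 CPM). Gbp2, a guanylate-binding protein of the cell-autonomous defence against intracellular pathogens, was highest in mature dendritic cell-like cells of aneurysm and room air, at 164 and 162 CPM.

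Over the 31 combinations of class and library, the log2(CPM + 10) of each member was set against that of the other members summed. Those that ran closest were Isg15 (Pearson r = 0.83), Oasl2 (0.82), Rtp4 (0.78), Oas1a (0.77) and Rsad2 (0.77). Gbp5, Ifi47, Gbp7 and Herc6 ran apart from the list, with r between -0.05 and 0.06. These points share libraries and free RNA, and r is given as a description.

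**Figure D2:**
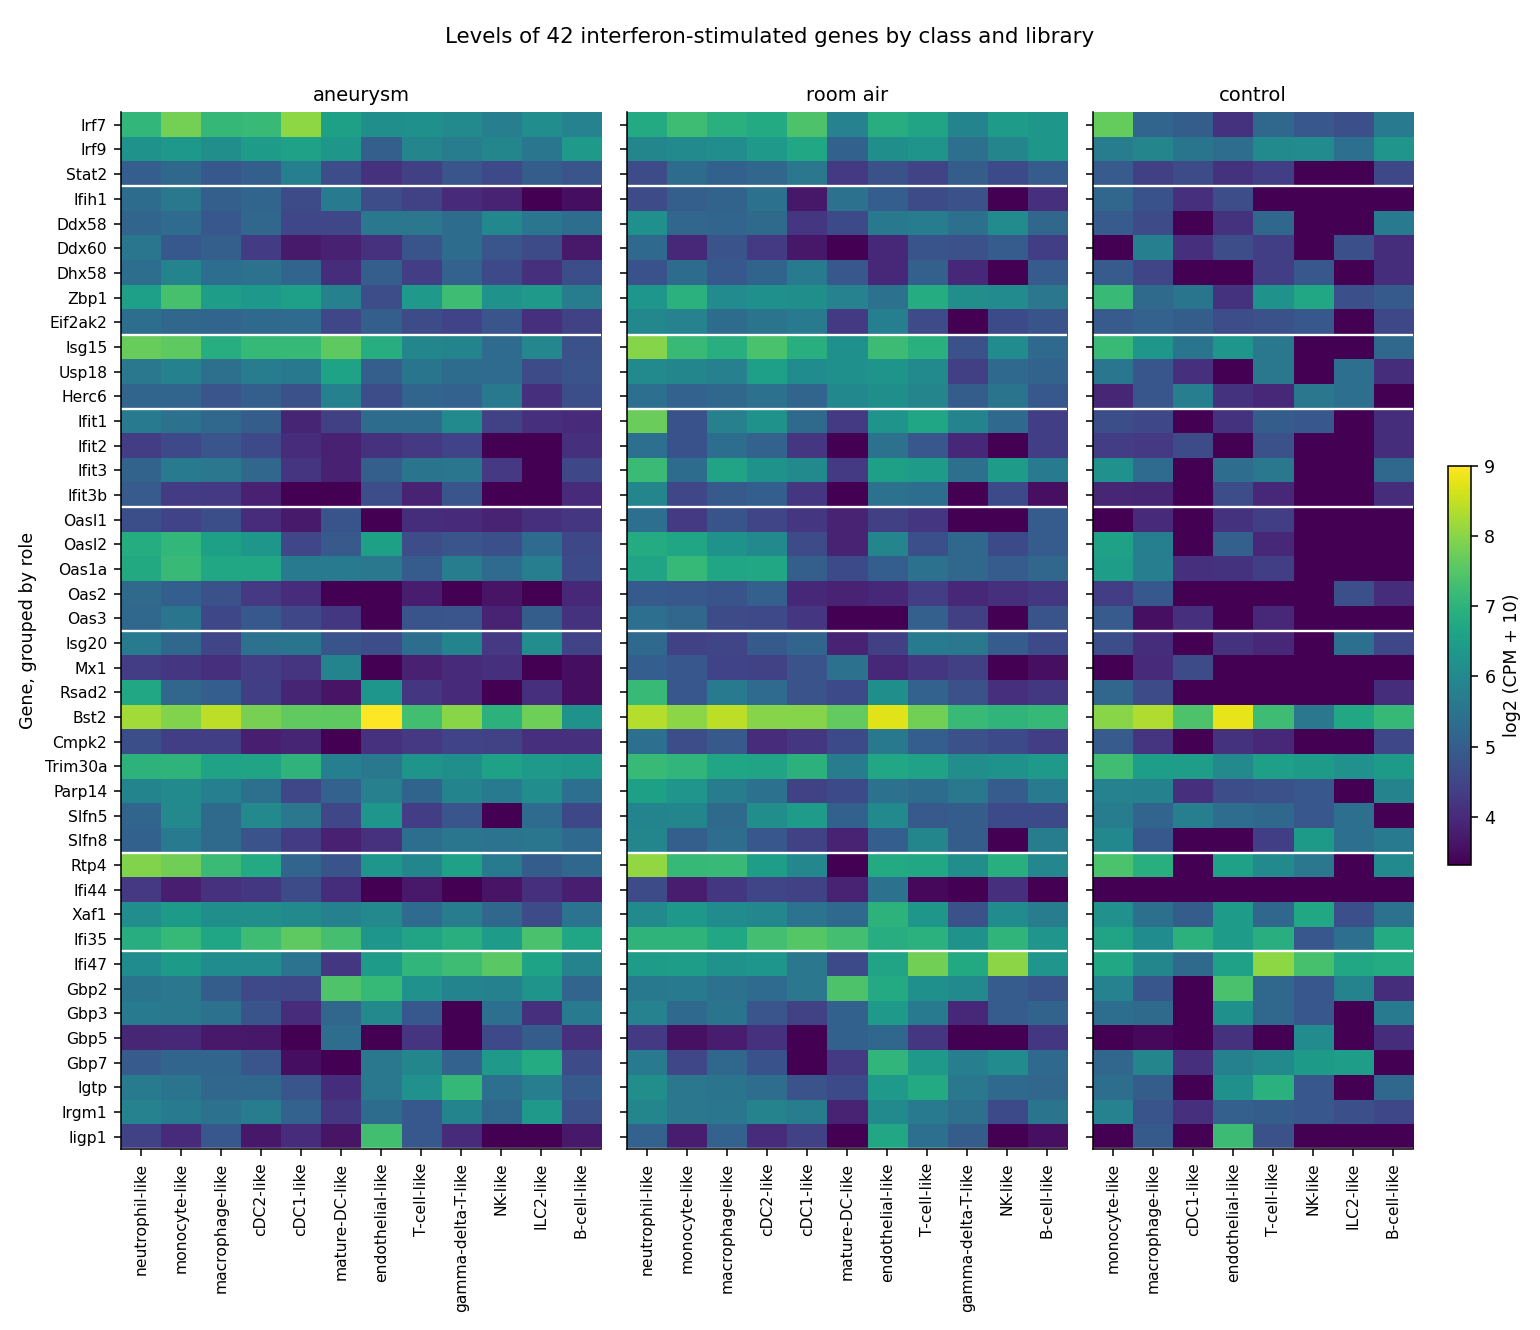
Level of each of the 42 members, as log2(CPM + 10), by cell class in the aneurysm, room air and control libraries, with members grouped by role. Bst2, Iigp1 and Gbp3 are each highest in endothelial-like cells of all 3 libraries. The other GTPases peak in other classes in some libraries, such as Gbp2 in mature dendritic cell-like cells of aneurysm and room air.

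In macrophage-like cells of the room air library, most members were above their level in control. Of 41 members with at least 20 UMIs over both libraries, 25 were at least 1.5-fold higher and 2 (Ddx60 and Gbp7) at least 1.5-fold lower, where 24.8% of all genes were higher and 13.2% lower by the same fold. For 22 of the 25, the interval of the ratio excluded 1. The median log2 ratio was 0.71 over the members and 0.13 over all genes, a shift of the whole table that stands beside every ratio here. The summed core level was 769 CPM in the aneurysm, 874 CPM in the room air and 425 CPM in the control cells, a room air over control ratio of 2.06 (1.87 to 2.26). With the free RNA estimate subtracted, the ratio was 1.63 and 14 members were higher.

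In aneurysm, macrophage-like cells differed less from room air. Of 42 members, 1 (Dhx58) was at least 1.5-fold higher and 8 at least 1.5-fold lower, against 3.55% and 6.77% of all genes. The 8 were Ifit1, Ifit2, Ifit3, Ifit3b, Mx1, Rsad2, Gbp2 and Cmpk2, and the interval excluded 1 for each. The core sum gave an aneurysm over room air ratio of 0.879 (0.842 to 0.919).

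The Ifit genes, whose products bind foreign 5' ends of viral RNA, had the highest room air over control ratio and the lowest aneurysm over room air ratio of the 8 role groups, a ratio of 3.24 (2.53 to 4.21) and 0.496 (0.444 to 0.554). Ifit3 had 38 CPM in the aneurysm, 89.5 CPM in the room air and 29.7 CPM in the control cells (218, 379 and 35 UMIs). Room air exceeded both other libraries, with ratios of 3.02 (2.13 to 4.4) over control and 0.424 (0.357 to 0.503) for aneurysm over room air. Ifit1 had 27 CPM in the aneurysm, 45.3 CPM in the room air and 13.6 CPM in the control cells (155, 192 and 16 UMIs), ratios of 3.34 (2.01 to 5.97) for room air over control and 0.595 (0.479 to 0.74) for aneurysm over room air. Ifit2 had 18.1 CPM in the aneurysm, 31.6 CPM in the room air and 9.32 CPM in the control cells (104, 134 and 11 UMIs), with corresponding ratios of 3.39 (1.84 to 6.96) and 0.572 (0.439 to 0.745). Ifit3b, the paralog of Ifit3, was at 9.58, 20.3 and 5.08 CPM in aneurysm, room air and control cells. All 4 Ifit genes had the same order of levels, room air above aneurysm above control. No aneurysm over control ratio was taken, and that step rests on 35, 16 and 11 control UMIs for Ifit3, Ifit1 and Ifit2. As a family the Ifit genes summed to 92.6 CPM in the aneurysm, 187 CPM in the room air and 57.6 CPM in the control cells. Rsad2 (viperin, which makes a chain-terminating nucleotide) and Cmpk2, its neighbour gene and a nucleotide kinase, had that order too. Rsad2 had 22.3 CPM in the aneurysm, 41.5 CPM in the room air and 14.4 CPM in the control cells (128, 176 and 17 UMIs), and ratios of 2.88 (1.75 to 5.06) over control and 0.536 (0.424 to 0.677) for aneurysm over room air. Cmpk2 had 10.8 CPM in the aneurysm, 19.8 CPM in the room air and 8.47 CPM in the control cells (62, 84 and 10 UMIs), and an aneurysm over room air ratio of 0.544 (0.386 to 0.765). Mx1, listed here among the antiviral effectors, was low throughout at 7.14, 12 and 5.93 CPM in the aneurysm, room air and control cells.

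Of the transmitters of the signal, Irf7 and Stat2 were higher in room air cells than in control cells, and none was past 1.5-fold in aneurysm. Irf7 had 128 CPM in the aneurysm, 111 CPM in the room air and 26.3 CPM in the control cells (734, 469 and 31 UMIs), the highest in aneurysm, with a room air over control ratio of 4.21 (2.93 to 6.27) and an aneurysm over room air ratio of 1.15 (1.03 to 1.3). Irf9 had 60.1 CPM in the aneurysm, 59.2 CPM in the room air and 49.997 CPM in the control cells (345, 251 and 59 UMIs). Both of its intervals held 1, at 1.19 (0.889 to 1.6) for room air over control and 1.01 (0.859 to 1.2) for aneurysm over room air. Stat2 had 19.5 CPM in the aneurysm, 23.8 CPM in the room air and 11 CPM in the control cells (112, 101 and 13 UMIs), a ratio of 2.16 (1.21 to 4.2) for room air over control. The Oas enzymes make the second messenger that activates RNase L, and the Oasl proteins are their relatives. Oas1a had 95.4 CPM in the aneurysm, 93.2 CPM in the room air and 44.1 CPM in the control cells (548, 395 and 52 UMIs), a ratio of 2.12 (1.58 to 2.88) for room air over control and 1.02 (0.897 to 1.17) for aneurysm over room air. Oasl2 was at 83, 65.9 and 44.9 CPM and its aneurysm over room air ratio was 1.26 (1.09 to 1.47). Oas3 had 13.4 CPM in the aneurysm, 15.1 CPM in the room air and 1.69 CPM in the control cells (77, 64 and 2 UMIs). With 2 UMIs in control, its room air over control ratio of 8.91 (2.37 to 75.2) has a wide interval. Oasl1 was at 15.8, 17.9 and 5.93 CPM in the aneurysm, room air and control cells, a room air over control ratio of 3.02 (1.4 to 7.78), whereas Oas2 was at 16.7, 17.7 and 19.5 CPM, with the control cells not below the others.

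In the ISG15 system, Isg15 had 107 CPM in the aneurysm, 109 CPM in the room air and 70.3 CPM in the control cells (613, 460 and 83 UMIs), a ratio of 1.54 (1.22 to 1.97) for room air over control and 0.983 (0.87 to 1.11) for aneurysm over room air. Usp18 removes ISG15 and damps signalling at IFNAR2. It had 32.6 CPM in the aneurysm, 45.3 CPM in the room air and 18.6 CPM in the control cells (187, 192 and 22 UMIs), ratios of 2.43 (1.56 to 3.97) and 0.718 (0.584 to 0.883). Herc6, the mouse ligase for ISG15, was at 18.3, 27.4 and 18.6 CPM.

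Of the 13 antiviral effectors and further induced genes, 8 were at least 1.5-fold higher in room air cells than in control cells and 0 lower, beside 24.8% and 13.2% of all genes. These were Rsad2, Cmpk2 and Mx1, given above, with Ifi44, Isg20, Slfn8, Ifi35 and Xaf1. Bst2 had 335 CPM in the aneurysm, 334 CPM in the room air and 310.1 CPM in the control cells (1922, 1416 and 366 UMIs), ratios of 1.08 (0.96 to 1.21) and 1.00 (0.934 to 1.07) for room air over control and aneurysm over room air. Trim30a was at 85.8, 92.5 and 81.4 CPM in aneurysm, room air and control cells, and Parp14, an ADP-ribosyltransferase, at 45.1, 43 and 46.6 CPM. Slfn5, Slfn8 and Isg20 (an exonuclease) lay between 6.78 and 30.7 CPM over the 3 libraries, with room air over control ratios that were 1.11 (0.747 to 1.71) for Slfn5 and 1.57 (1.01 to 2.57) for Slfn8 and 1.88 (0.889 to 4.58) for Isg20, whose interval held 1. Rtp4 had 137 CPM in the aneurysm, 131 CPM in the room air and 108 CPM in the control cells (786, 554 and 127 UMIs), with ratios of 1.22 (1.00 to 1.49) and 1.05 (0.937 to 1.17), while Ifi35 (1.63, interval 1.26 to 2.15) and Xaf1 (1.71, interval 1.22 to 2.47) were higher in room air cells than in control cells. Ifi44 was at 7.66 CPM in aneurysm and 8.97 CPM in room air (44 and 38 UMIs) with 0 UMIs in control cells, at least 3.53-fold higher in room air against a floor of 3 counts in that class.

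Among the sensors, Zbp1 had 79.2 CPM in the aneurysm, 56.7 CPM in the room air and 28.8 CPM in the control cells (455, 240 and 34 UMIs). Its ratios were 1.97 (1.37 to 2.91) for room air over control and 1.4 (1.19 to 1.64) for aneurysm over room air, so each library was above the next. Dhx58 (LGP2, a regulator of the RIG-I-like receptors) had 31.7 CPM in the aneurysm, 19.4 CPM in the room air and 12.7 CPM in the control cells (182, 82 and 15 UMIs), and was the only member past 1.5-fold higher in aneurysm, at 1.64 (1.25 to 2.15). Ddx58 (RIG-I) was at 19, 26 and 14.4 CPM, and Ifih1 (MDA5) and Eif2ak2 (the kinase PKR) had ratios between 0.865 and 1.49 in both comparisons. Ddx60, a helicase linked to RIG-I, had 23 CPM in the aneurysm, 17.2 CPM in the room air and 44.9 CPM in the control cells (132, 73 and 53 UMIs). Its room air over control ratio was 0.384 (0.266 to 0.557) in the class but 1.21 (0.676 to 2.08) within cluster 2.

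The GTPases summed to 222 CPM in the aneurysm, 260.4 CPM in the room air and 209 CPM in the control cells, a ratio of 1.24 (1.08 to 1.43) for room air over control and 0.852 (0.785 to 0.924) for aneurysm over room air. With free RNA subtracted, room air over control was 0.92, on the other side of 1. Ifi47 was at 57.5, 64 and 50.8 CPM. Gbp2 had 22.1 CPM in the aneurysm, 33.5 CPM in the room air and 18.6 CPM in the control cells (127, 142 and 22 UMIs) and an aneurysm over room air ratio of 0.66 (0.515 to 0.844). Igtp (Irgm3) was at 26.6, 35.6 and 22 CPM, and Irgm1, which guards host membranes from the other GTPases, at 34.1, 36.8 and 17.8 CPM. Gbp3 and Iigp1 had room air over control ratios of 1.22 and 1.2. Gbp7, against the direction of the list, had 26.1 CPM in the aneurysm, 27.4 CPM in the room air and 49.997 CPM in the control cells (150, 116 and 59 UMIs), a room air over control ratio of 0.548 (0.397 to 0.763) in the class and 0.812 (0.406 to 1.51) within cluster 2. Gbp5 had 18, 15 and 1 UMIs and was counted only for aneurysm over room air.

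**Figure D3:**
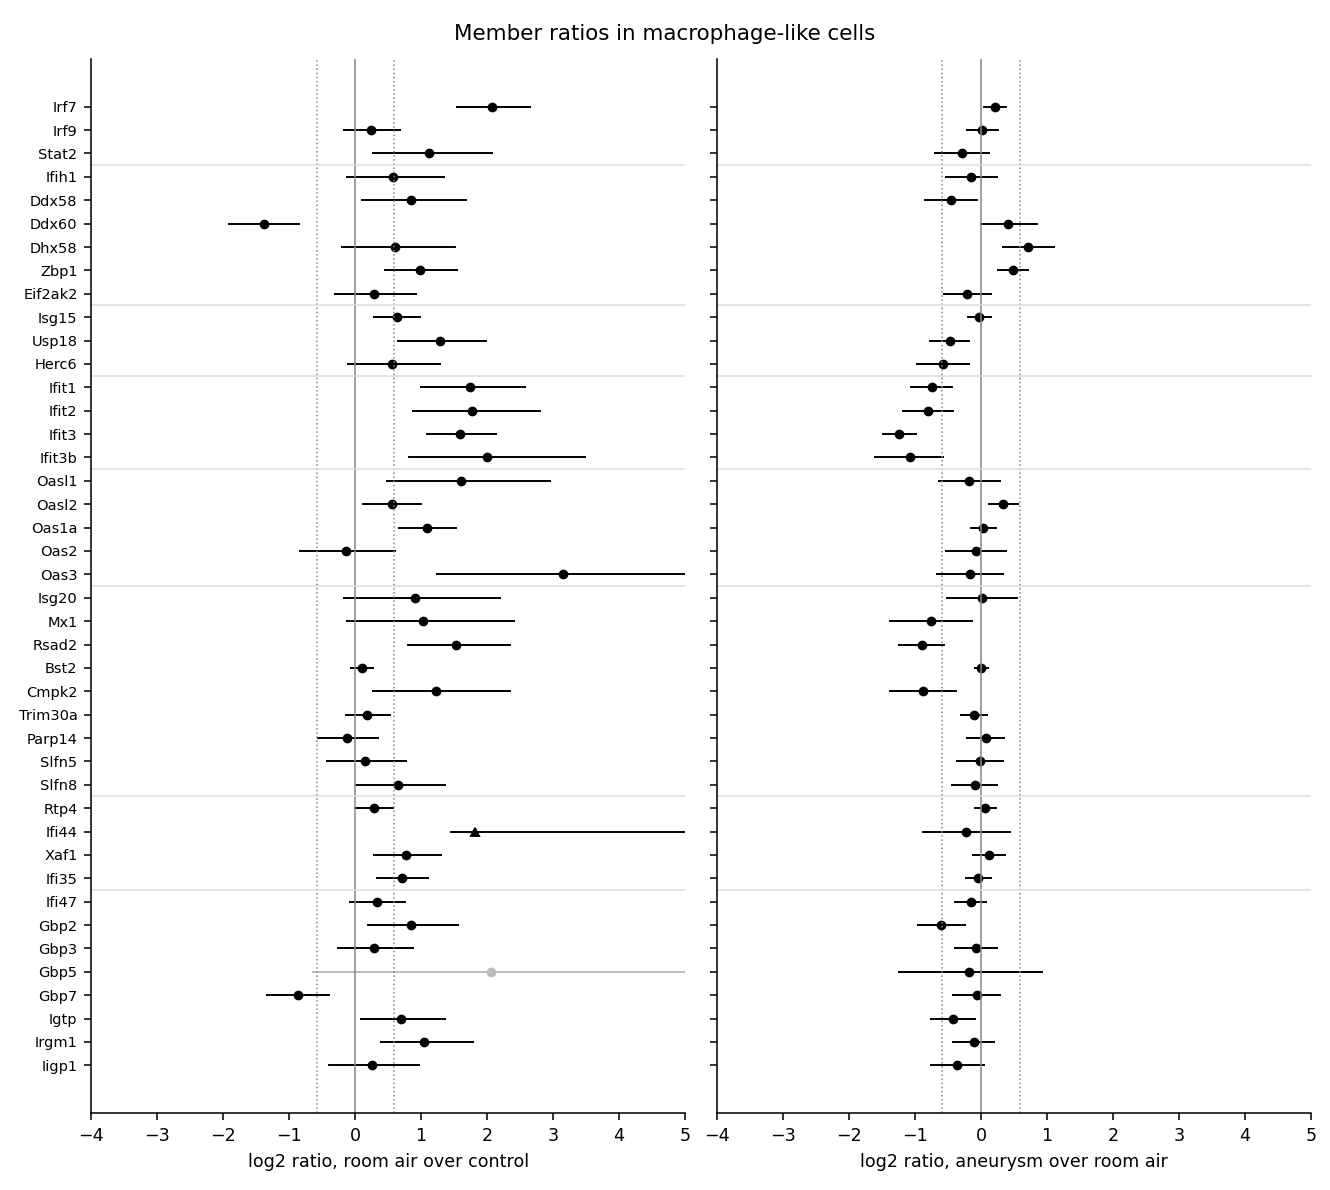
Log2 ratio of each member in macrophage-like cells, room air over control on the left and aneurysm over room air on the right, with exact 95% intervals for counting error. Dotted lines mark 1.5-fold, the triangle is the lower bound for Ifi44 against a floor of 3 counts, and grey marks Gbp5, under 20 UMIs. Most points lie right of 0 on the left, with Ddx60 and Gbp7 on the other side, and on the right the Ifit genes, Rsad2, Cmpk2, Mx1 and Gbp2 stand to the left.

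The clusters of macrophage-like cells differed in direction between aneurysm and room air, a difference that was not tested. In cluster 2, the Lyve1 and Folr2 cells, the core level was 967 CPM in the aneurysm, 595 CPM in the room air and 407 CPM in the control cells. Aneurysm over room air was 1.63 (1.39 to 1.92) there, and 13 of 37 members were at least 1.5-fold higher and 1 (Ifit2) lower, against 14.4% and 11.9% of all genes. For 4 of the 13 the interval excluded 1, and that of Ifit2 held 1. Zbp1 had 119.6 CPM in the aneurysm and 35.6 CPM in the room air cells (115 and 11 UMIs) in cluster 2, a ratio of 3.36 (1.81 to 6.93). Irf7 had 143 CPM in the aneurysm and 61.4 CPM in the room air cells (137 and 19 UMIs), a ratio of 2.32 (1.43 to 3.97). Usp18 had 37.4 CPM in the aneurysm and 3.23 CPM in the room air cells (36 and 1 UMIs). Isg15 had 143 CPM in the aneurysm and 71.1 CPM in the room air cells (137 and 22 UMIs), a ratio of 2.00 (1.27 to 3.3). Room air over control in cluster 2 was 1.46 (1.22 to 1.74) for the core sum, and 14 of 31 members were higher and 1 lower against the 15.4% and 14.3% of all genes. With free RNA subtracted (estimates 37.2% in room air and 10.6% in control), that ratio was 0.808, on the other side of 1, so the direction within this cluster depends on the correction.

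Cluster 12, the Ccl12 and Clec4b1 cells, ran the other way in aneurysm. Its core level was 953 CPM in the aneurysm and 1253 CPM in the room air cells, a ratio of 0.761 (0.709 to 0.816), and 12 of 41 members were lower and 1 higher, against 9.35% and 5.92% of all genes. Ifit3 had 45.8 CPM in the aneurysm and 144 CPM in the room air cells (67 and 212 UMIs) there, a ratio of 0.317 (0.237 to 0.42). Ifit1 and Ifit2 had ratios of 0.419 (0.289 to 0.598) and 0.355 (0.213 to 0.572). Past 2-fold lower in cluster 12 were also Ifit3b (0.328), Rsad2 (0.271), Cmpk2 (0.215), Iigp1 (0.408), Herc6 (0.433) and Usp18 (0.478). Cluster 6, the Gpnmb and Trem2 cells, had 635 CPM in the aneurysm and 586 CPM in the room air cells, a ratio of 1.08 (1.00 to 1.17). Cluster 5 had 615 CPM in the aneurysm and 987 CPM in the room air cells, a ratio of 0.623 (0.552 to 0.703), beside its high share of markers of other lineages. With free RNA subtracted, the level of cluster 5 was below 0 in the aneurysm, so no ratio could be given. The part of free RNA in these values was not tested beyond the subtraction.

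In T-cell-like cells the core genes were highest in room air and lower in both other libraries. The core level was 368 (339.5 to 399) CPM in the aneurysm, 722 (671 to 775) CPM in the room air and 278 (207 to 365) CPM in the control cells. In aneurysm, 20 of 39 members were at least 1.5-fold lower than in room air and 0 higher, against 18.2% and 6.62% of all genes, and for 17 the interval excluded 1. The median log2 ratio was -0.60 over the members and -0.13 over all genes, and the core sum gave 0.51 (0.458 to 0.569). Ifit1 had 29.9 CPM in the aneurysm, 91.6 CPM in the room air and 21.8 CPM in the control cells (49, 97 and 4 UMIs), an aneurysm over room air ratio of 0.327 (0.227 to 0.465). Isg15 had 50.7 CPM in the aneurysm, 112 CPM in the room air and 38.1 CPM in the control cells (83, 119 and 7 UMIs), a ratio of 0.451 (0.337 to 0.602). Ifit3 had 35.4 CPM in the aneurysm, 78.4 CPM in the room air and 38.1 CPM in the control cells (58, 83 and 7 UMIs), a ratio of 0.452 (0.317 to 0.64). In each of these the room air cells stood above both other libraries. Xaf1 (0.42, interval 0.285 to 0.611) and Ifit3b (0.157, interval 0.0626 to 0.346) were also past 2-fold lower in aneurysm. Irf7 had 61.7 CPM in the aneurysm, 89.7 CPM in the room air and 27.2 CPM in the control cells (101, 95 and 5 UMIs), and the interferon gamma-responsive Ifi47 123 CPM in the aneurysm, 213 CPM in the room air and 251 CPM in the control cells (202, 225 and 46 UMIs), a ratio of 0.581 (0.478 to 0.705) for aneurysm over room air and 0.848 (0.615 to 1.19) for room air over control. Igtp, similarly, had 63.5 CPM in the aneurysm, 101 CPM in the room air and 114 CPM in the control cells (104, 107 and 21 UMIs). For Ifi47 and Igtp the control cells were not below room air. The GTPases Gbp2, Irgm1 and Iigp1 were at least 1.5-fold higher in room air than in control, as were Ifit1, Ifit3 and Ifit3b.

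Room air over control in T-cell-like cells was 2.6 (1.95 to 3.52) for the core sum and 1.12 (0.898 to 1.4) for the GTPases. 22 of 33 members were higher and 0 lower, against 40.8% and 7.45% of all genes, and the median log2 ratio of all genes was itself 0.40, so the count stands beside a high background. For 8 of the 22, the interval excluded 1. Within cluster 13, which holds nearly all control T-cell-like cells, the core sum was 208 CPM in the aneurysm, 429 CPM in the room air and 290.2 CPM in the control cells, a ratio of 1.48 (1.06 to 2.08) for room air over control and 0.485 (0.394 to 0.599) for aneurysm over room air. With free RNA subtracted, room air over control in cluster 13 was 1.03, so that difference was lost. For aneurysm over room air in cluster 13, 0 of 23 members were at least 1.5-fold higher and 9 lower, against 9.85% and 19.1% of all genes. Isg15 (0.253, interval 0.123 to 0.514) and Ifit1 (0.203, interval 0.0776 to 0.504) were among those past 2-fold lower in aneurysm in cluster 13. Iigp1 (0.219), Irgm1 (0.403), Rtp4 (0.409) and Igtp (0.431) were the others. Cluster 14, the Gzmk and Cd8a cells, differed from this, with 1006 CPM in the aneurysm and 848 CPM in the room air cells, a ratio of 1.19 (1.01 to 1.38). There 4 of 30 members were at least 1.5-fold higher and 2 lower, against 12.3% and 14.4% of all genes, and Iigp1 was higher in aneurysm (2.91, interval 1.27 to 6.8). Intervals excluded 1 for 2 of the 4 higher members and 0 of the 2 lower ones. Cluster 21, the Izumo1r and Cd4 cells, had 448 CPM in the aneurysm and 963 CPM in the room air cells, a ratio of 0.465 (0.358 to 0.603). The makeup of the class also differed, with 86 of 551 aneurysm and 230 of 397 room air cells in cluster 14.

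Other classes split in direction between aneurysm and room air. Monocyte-like cells had a core level of 1128 CPM in the aneurysm, 864 CPM in the room air and 858 CPM in the control cells, a ratio of 1.3 (1.18 to 1.45) for aneurysm over room air and 1.01 (0.84 to 1.21) for room air over control, or 0.827 with free RNA subtracted. For aneurysm over room air, 9 of 39 members were at least 1.5-fold higher and 2 lower, against 12.4% and 10.7% of all genes. Intervals excluded 1 for 4 of the 9 and 1 of the 2. For room air over control, 2 of 24 members were at least 1.5-fold higher and 2 lower, against 27.8% and 7.61% of all genes, each with an interval that held 1. Isg20 (2.4, interval 1.03 to 6.87) and Ddx60 (3.4, interval 1.07 to 17.3) were past 2-fold higher in aneurysm than in room air. Mature dendritic cell-like cells had 536 CPM in the aneurysm and 285 CPM in the room air cells, a ratio of 1.88 (1.41 to 2.53), and 5 of 14 members were at least 1.5-fold higher and 0 lower, against 10.9% and 14.4% of all genes. Intervals excluded 1 for 2 of the 5 members. With free RNA subtracted, the ratio of the core sum was 4.74, over levels of 399 CPM in the aneurysm and 84.2 CPM in the room air cells. Isg15 had 182 CPM in the aneurysm and 61.9 CPM in the room air cells (82 and 13 UMIs) in these cells, a ratio of 2.94 (1.63 to 5.75), and Irf9 a ratio of 2.98 (1.15 to 9.8). Gamma-delta T-like cells had 451 CPM in the aneurysm and 339 CPM in the room air cells, with an interval that spanned 1 (1.33, interval 0.935 to 1.89) and a ratio of 2.08 with free RNA subtracted, although Zbp1 (2.33, interval 1.09 to 5.29) and Igtp (3.34, interval 1.37 to 9.3) were higher. Of the few members counted there, 4 of 7 members were at least 1.5-fold higher and 0 lower, against 13.2% and 11.6% of all genes.

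Neutrophil-like cells lay on the lower side in aneurysm, at 1093 CPM in the aneurysm and 1558 CPM in the room air cells, a ratio of 0.702 (0.637 to 0.774), and 2 of 40 members were at least 1.5-fold higher and 14 lower, against 8.35% and 12.4% of all genes. Intervals excluded 1 for 7 of the 14 and 0 of the 2. Ifit1 had 39.6 CPM in the aneurysm and 197 CPM in the room air cells (30 and 105 UMIs) in neutrophil-like cells, a ratio of 0.201 (0.129 to 0.304). Ifit3 had 25.1 CPM in the aneurysm and 137 CPM in the room air cells (19 and 73 UMIs), a ratio of 0.183 (0.104 to 0.307). Ifit2 (0.331), Ifit3b (0.417), Ddx58 (0.426) and Slfn8 (0.469) were also past 2-fold lower, whereas Isg15 and Rtp4 stayed within 1.5-fold, at 0.802 (0.628 to 1.02) and 0.896 (0.713 to 1.13). In cDC2-like cells the core sum was 707 CPM in the aneurysm and 855 CPM in the room air cells, a ratio of 0.827 (0.758 to 0.902), and 1 of 39 members were at least 1.5-fold higher and 9 lower, against 8.62% and 9.95% of all genes. Ifit3b (0.197), Ifit1 (0.345), Rsad2 (0.361), Oas2 (0.397), Ifit3 (0.407) and Gbp2 (0.46) were past 2-fold lower in those cells.

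B-cell-like cells had a core level of 205 CPM in the aneurysm, 358 CPM in the room air and 205 CPM in the control cells, a ratio of 0.574 (0.475 to 0.693) for aneurysm over room air and 1.75 (1.19 to 2.66) for room air over control. With free RNA subtracted, these ratios were 0.765 and 1.08. For aneurysm over room air, 1 of 30 members were at least 1.5-fold higher and 12 lower, against 7.43% and 16.5% of all genes, and for room air over control 4 of 16 members were at least 1.5-fold higher and 4 lower, against 23.9% and 11.3% of all genes, so the second count was near its background. Intervals excluded 1 for 5 of the 12 lower in aneurysm, and for 0 of those called in room air over control. Ifit3 (0.325), Oasl1 (0.403) and Irgm1 (0.462) were past 2-fold lower in aneurysm. NK-like cells had 244 CPM in the aneurysm, 465 CPM in the room air and 75.9 CPM in the control cells, a ratio of 0.524 (0.381 to 0.725) for aneurysm over room air, or 0.643 with free RNA subtracted. In NK-like cells Rtp4 had a ratio of 0.386 (0.184 to 0.822) for aneurysm over room air. In these cells 2 of 15 members were at least 1.5-fold higher and 5 lower, against 14.7% and 15.7% of all genes. Intervals excluded 1 for 1 of the 5 and 0 of the 2. cDC1-like cells had 579 CPM in the aneurysm, 596 CPM in the room air and 109 CPM in the control cells, a ratio of 5.48 (3.24 to 9.96) for room air over control, while aneurysm and room air differed within counting error at 0.971 (0.815 to 1.16), or 1.08 with free RNA subtracted. In cDC1-like cells 7 of 9 members were at least 1.5-fold higher and 0 lower, against 29.3% and 8.16% of all genes for room air over control, and 3 of 20 members were at least 1.5-fold higher and 6 lower, against 14.0% and 9.26% of all genes for aneurysm over room air. Intervals excluded 1 for 4 of the 7, 1 of the 3 and 3 of the 6. Irf7 had 161 CPM in the room air and 21.8 CPM in the control cells (56 and 3 UMIs), a ratio of 7.41 (2.41 to 37), and Isg15 109 CPM in the room air and 36.3 CPM in the control cells (38 and 5 UMIs), a ratio of 3.02 (1.19 to 9.82). Irf9 (2.62, interval 1.02 to 8.59) and Usp18 (20 UMIs in room air and 1 in control) were likewise past 2-fold, and Ifit3 (0.15, interval 0.0437 to 0.415), Gbp2 (0.35, interval 0.126 to 0.912) and Slfn5 (0.485, interval 0.266 to 0.878) were past 2-fold lower in aneurysm. The control cDC1-like sum rests on 26 cells.

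Endothelial-like cells (26, 39 and 46) had a core level of 534 CPM in the aneurysm, 858 CPM in the room air and 263 CPM in the control cells, a ratio of 3.26 (2.24 to 4.88) for room air over control and 0.622 (0.462 to 0.83) for aneurysm over room air. For room air over control, 5 of 13 members were at least 1.5-fold higher and 1 lower, against 20.2% and 14.9% of all genes. For aneurysm over room air, 2 of 14 members were at least 1.5-fold higher and 5 lower, against 13.3% and 14.7% of all genes. Their GTPase level hardly differed, at 1.09 (0.811 to 1.49) for room air over control, with an interval around 1, while Gbp7 had 38.1 CPM in the aneurysm, 123 CPM in the room air and 46.4 CPM in the control cells (5, 22 and 6 UMIs). In the dividing cells of cluster 1, 2 of 27 members were at least 1.5-fold higher and 10 lower, against 12.4% and 16.2% of all genes for aneurysm over room air. Aneurysm was lower for Ifit3 (0.139, interval 0.0417 to 0.365) and Oas1a (0.286, interval 0.139 to 0.557), and past 2-fold lower also for Oasl2, Rtp4, Ifi47, Xaf1 and Gbp2.

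**Figure D4:**
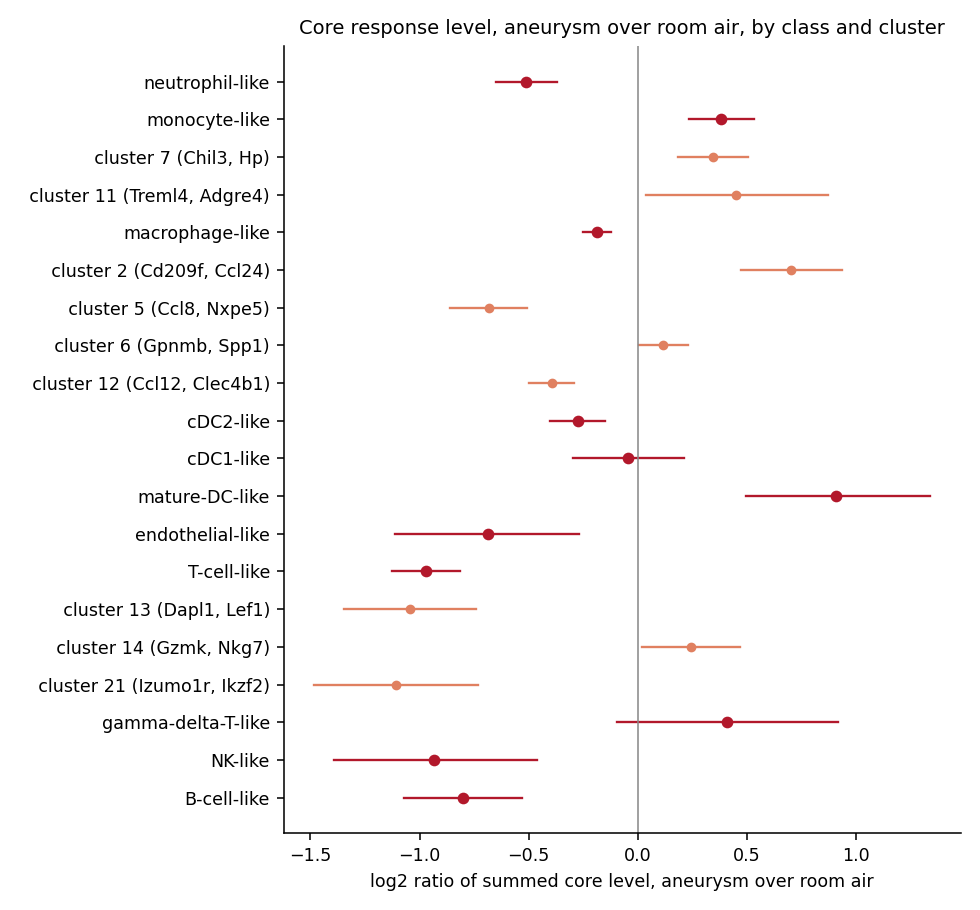
Log2 ratio of the summed core level, aneurysm over room air, by cell class and, paler, by cluster of the monocyte-like, macrophage-like and T-cell-like classes, with exact 95% intervals. Mature dendritic cell-like cells and cluster 2 lie highest, at ratios of 1.88 and 1.63, and cluster 21 lowest, at 0.465. Dividing cells are not drawn.

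At an equal depth of 1000 UMIs a cell, several core genes at once were seen in a minority of cells. Each cell was thinned to that depth, and a cell carried the response if it had a UMI of at least 3 of 16 core genes. Carriers made up 113 of 2775 cells, 4.07% (3.37 to 4.88) in aneurysm, 102 of 1821 cells, 5.6% (4.59 to 6.76) in room air and 15 of 773 cells, 1.94% (1.09 to 3.18) in control. In macrophage-like cells they were 50 of 669 cells, 7.47% (5.6 to 9.73) in aneurysm, 47 of 566 cells, 8.3% (6.17 to 10.9) in room air and 8 of 310 cells, 2.58% (1.12 to 5.02) in control, with Clopper-Pearson intervals. In this draw the aneurysm and room air intervals overlapped, and the control interval lay below both. The free RNA estimates given above differ between these libraries, and their part in the shares was not tested. Averaged over 100 thinning draws, the shares were 6.45%, 8.17% and 2.44%, over ranges of 4.93 to 8.22%, 6.36 to 10.1% and 1.29 to 3.55%. At these means the aneurysm interval (4.69 to 8.56%) overlapped that of control (1.12 to 5.02%), and that of room air (6.01 to 10.7%) lay above control. Unthinned, the shares were 52.6%, 51.4% and 12.6%, at median depths of 7714, 6318 and 3247 UMIs. By their definition rich in these genes, the carriers held 44.6% of the class's thinned core UMIs in aneurysm, 48.8% in room air and 32.5% in control. No core UMI at all was seen in 56.7%, 53.7% and 71.3%. The cut is a point in a range and not a cell type, since 59, 61 and 14 cells had 2 genes and 23, 17 and 4 exactly 3. Strong carriers, with 5 or more genes, were 11 macrophage-like cells in aneurysm (1.64%), 22 in room air (3.89%) and 3 in control (0.968%).

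By class, over 100 draws, neutrophil-like cells carried the response in 9.55% (4.1 to 17.5) in aneurysm and 17.3% (10.2 to 28.3) in room air. Monocyte-like cells did so in 8.75% (5.62 to 13.1), 4.88% (1.61 to 11.1) and 4.72% (1.04 to 13.9). T-cell-like cells had 1.7% (0.75 to 3.08), 5.35% (3.3 to 7.97) and 2.26% (0.267 to 7.71), and B-cell-like cells 0.764%, 1.51% and 0.68%. In the single draw, NK-like cells had 0 of 128 carriers in aneurysm, which allows a share of up to 2.34% (3 counts) with 3 core genes seen among 1000 UMIs, not of cells that answer interferon. Unthinned, the share of the same cells was 4.69%, at a median depth of 3050.5 UMIs. Every nucleated cell can answer interferon, so no class gives a true blank. Over the 100 draws NK-like cells had 0.531% in aneurysm and 0.818% in room air, and mature dendritic cell-like cells 2.27% (0.312 to 8.96) and 0.108% (0 to 9.49). That last share rests on a mean of 0.04 carriers. Among macrophage-like clusters, cluster 2 had 9.81% (4.92 to 16.6), 2.63% (0.413 to 11.7) and 2.22% (0.788 to 4.59) carriers. Its room air share rests on a mean of 1.55 carriers. Cluster 12 had 7.67% (4.39 to 12.4) in aneurysm and 13.1% (9.06 to 18) in room air. Cluster 6 had 4.79% and 3.89%. Among T-cell-like clusters, cluster 14 had 7.24% and 6.59% and cluster 13 0.203%, 1.94% and 2.37%. Of the classes and clusters named here over the draws, only T-cell-like cells had aneurysm and room air intervals that did not overlap.

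**Figure D5:**
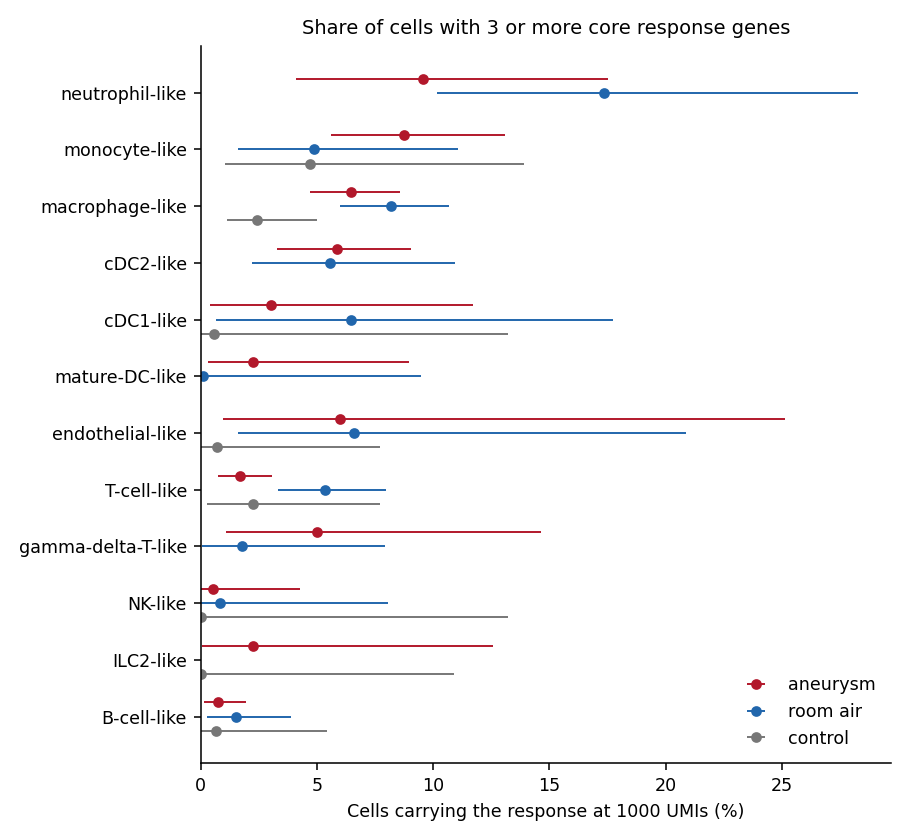
Share of cells carrying the response (percent, mean of 100 draws thinned to 1000 UMIs a cell) by class in the aneurysm, room air and control libraries, with exact binomial 95% intervals of the rounded mean count. Neutrophil-like cells reach 17.3% in room air, and macrophage-like cells 6.45%, 8.17% and 2.44% in aneurysm, room air and control.

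The GTPases, which took no part in calling carriers, were more often seen in them. At 1000 UMIs a cell, a GTPase UMI was found in 18 of 50, 36% (22.9 to 50.8) macrophage-like carriers of aneurysm and 113 of 619, 18.3% (15.3 to 21.5) other macrophage-like cells. In room air the counts were 23 of 47, 48.9% (34.1 to 63.9) and 97 of 519, 18.7% (15.4 to 22.3), and in control 5 of 8, 62.5% (24.5 to 91.5) and 52 of 302, 17.2% (13.1 to 22). For the class, the intervals were apart in all 3 libraries in this draw. By cluster in aneurysm, they were apart in cluster 2, at 61.5% (31.6 to 86.1) and 21.8% (14.2 to 31.1). They overlapped in cluster 12, at 29.2% (12.6 to 51.1) and 21.2% (15.3 to 28.1), and in clusters 5 and 6. In room air they were apart in cluster 12, at 54.8% (36 to 72.7) and 22.8% (17.3 to 29.2), and overlapped in clusters 2, 5 and 6. Carriers were not deeper than the others before thinning in the aneurysm and room air libraries, with median depths of 7066 and 4856 UMIs against 7764 and 6471. T-cell-like carriers of room air had a GTPase UMI in 17 of 19, 89.5% (66.9 to 98.7), against 142 of 378, 37.6% (32.7 to 42.7) of the others, and those of aneurysm in 6 of 9, 66.7% (29.9 to 92.5), against 135 of 542, 24.9% (21.3 to 28.8). Monocyte-like cells of aneurysm had 42.1% (20.3 to 66.5) in carriers and 20.4% (15.4 to 26.2) in others. The cDC2-like cells had 20% (2.52 to 55.6) and 14.3% (10.4 to 19.1) in aneurysm, and 66.7% (29.9 to 92.5) and 15.1% (9.22 to 22.8) in room air. Neutrophil-like cells had 2 of 10, 20% (2.52 to 55.6) in carriers and 15 of 76, 19.7% (11.5 to 30.5) in others in aneurysm. In room air they had 3 of 11, 27.3% (6.02 to 61) and 18 of 67, 26.9% (16.8 to 39.1). Their carrier intervals also hold the macrophage-like carrier shares of 36% and 48.9%, so a difference between these classes is not shown. These cells share a library, so the intervals describe cells of 3 pools and not mice.

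The rest of the pathway was read from lists of 127 further genes, 117 of them with a row. None of the listed type I and type III interferon genes had a UMI in any library. For Ifnb1, as for the others, 0 UMIs over all cells allow a level of up to 0.186 CPM in the aneurysm, 0.307 CPM in the room air and 1.18 CPM in the control library (3 counts). Ifng had 35 UMIs in aneurysm and 45 in room air over all cells (2.17 and 4.61 CPM), and 0 in control, which allows up to 1.18 CPM. Most came from T-cell-like cells (18 and 30), among which cluster 14 had 52.3 CPM in aneurysm and 46.7 CPM in room air, and NK-like cells had 9 and 3 UMIs. In macrophage-like cells 3 of 8 counted receptor and kinase genes were at least 1.5-fold higher in room air cells than in control cells, and 0 lower, beside 24.8% and 13.2% of all genes. Ifngr2 had 159.8 CPM in the aneurysm, 186 CPM in the room air and 78 CPM in the control cells (918, 790 and 92 UMIs), a ratio of 2.39 (1.93 to 3.00). Ifnar1 had 78.3 CPM in the aneurysm, 79.5 CPM in the room air and 39 CPM in the control cells (450, 337 and 46 UMIs), a ratio of 2.04 (1.5 to 2.84). Ifnar2, which binds interferon with it, had 1.81 (1.49 to 2.21), while Ifngr1 (1.25, interval 1.12 to 1.4) and Il10rb (1.29, interval 1.14 to 1.46) were within 1.5-fold. Aneurysm over room air moved none of the 8 past 1.5-fold.

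Among the transcription factors, Irf8, which directs myeloid development, was higher in room air cells than in control cells. It had 273 CPM in the aneurysm, 261 CPM in the room air and 133 CPM in the control cells (1570, 1106 and 157 UMIs), a ratio of 1.96 (1.66 to 2.33). Irf5, Stat3 and Irf2 had ratios of 1.44, 1.41 and 0.676, and none of these 4 genes was past 1.5-fold in aneurysm over room air. Of 10 upstream sensors, 4 were higher in room air and 0 lower, beside the same 24.8% and 13.2% of all genes. Myd88, the adaptor of Toll-like receptors, had 62.3 CPM in the aneurysm, 62.6 CPM in the room air and 28.8 CPM in the control cells (358, 265 and 34 UMIs), a ratio of 2.17 (1.52 to 3.2). Mb21d1 (cGAS, the sensor of cytosolic DNA) had 11.3 CPM in the aneurysm, 13.5 CPM in the room air and 5.08 CPM in the control cells (65, 57 and 6 UMIs), a ratio of 2.65 (1.14 to 7.51). Mavs, the adaptor of RIG-I, had 2.31 (1.3 to 4.49) for room air over control and 0.574 (0.426 to 0.77) for aneurysm over room air, and Ticam1 had 2.03 (1.25 to 3.38) for aneurysm over room air. Samhd1, Tmem173 (STING) and Tlr7 had room air over control ratios of 1.12, 1.37 and 0.786. Among 5 genes that brake the pathway 3 were higher in room air and 0 lower, beside 24.8% and 13.2% of all genes. Socs3 had 85.5 CPM in the aneurysm, 96.8 CPM in the room air and 37.3 CPM in the control cells (491, 410 and 44 UMIs), a ratio of 2.6 (1.9 to 3.63), and Ptpn6 (1.74, interval 1.49 to 2.04) and Socs1 (2.23, interval 0.879 to 7.23) were the others. The interval of Socs1 held 1, and Socs1 was lower in aneurysm than in room air (0.553, interval 0.333 to 0.911).

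Of 62 counted further targets, 37 were higher and 2 lower in room air than in control macrophage-like cells, beside 24.8% and 13.2% of all genes, with a median log2 ratio of 0.80. Cxcl10, the chemokine that draws CXCR3+ T cells, had 10.1 CPM in the aneurysm, 43.2 CPM in the room air and 2.54 CPM in the control cells (58, 183 and 3 UMIs). It was the target with the lowest aneurysm over room air ratio, a ratio of 0.234 (0.171 to 0.316), and its room air over control ratio was 17 (5.72 to 83.2). Cxcl9, which binds the same receptor, had 57, 65 and 0 UMIs, at least 6.04-fold higher in room air cells than in control cells against the floor of 3 counts. Ly6a had 317 CPM in the aneurysm, 232 CPM in the room air and 11.9 CPM in the control cells (1818, 982 and 14 UMIs), a ratio of 19.5 (11.6 to 35.9), and Ifitm1 138 CPM in the aneurysm, 148 CPM in the room air and 7.63 CPM in the control cells (790, 627 and 9 UMIs), a ratio of 19.4 (10.2 to 42.6). Ly6a, Ifitm1 and Cd69 (20.3, interval 3.54 to 814) had 14, 9 and 1 UMIs in control. Slfn4 had 29 UMIs in room air and 0 in control. AA467197 had 846, 707 and 1 UMIs in aneurysm, room air and control cells. Past 2-fold higher were also Helz2, Ly6c2, Ms4a4c, Ms4a4b, Slfn1, Gbp8, Fgl2, Ifi30, Lgals3bp, Tor3a, Tap1, Pyhin1 and Phf11b, with ratios from 2.16 for Phf11b to 8.63 for Helz2. Tap1 loads peptides for presentation by MHC class I. Gm4951 was lower, at 0.364 (0.261 to 0.511). The targets with most UMIs lay below 1, with Ifitm3 at 1892, 1486 and 2224 CPM in aneurysm, room air and control cells, a ratio of 0.668 (0.638 to 0.700) for room air over control, and Ifi27l2a (0.762), Ifitm2 (0.689) and Ly6e (0.789) alike. In aneurysm over room air 1 of 64 targets was higher (Oas1c, 15 and 5 UMIs) and 7 lower, beside 3.55% and 6.77% of all genes, with a median log2 ratio of -0.05. Besides Cxcl10, Tgtp2 (0.436, interval 0.202 to 0.904) and Tnfsf10 (0.469, interval 0.222 to 0.959) were past 2-fold lower.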

How the data were processed

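10x Genomics 3' v2 libraries were made, 1 for each group. The authors deposited raw counts, whole UMIs for each gene in each called barcode. Per the submitters' processing notes the tools were STAR and Cell Ranger (version not given in the sources used here) and the build was mm10. No normalization had been applied.

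Cells with at least 200 genes and at most 10% mitochondrial UMIs were kept. Scrublet's automatic threshold marked 0, 2 and 1 cells in aneurysm, room air and control, so top-scoring cells were removed up to an expected 0.8% per 1000 barcodes (64, 27 and 5). Counts were scaled to 10000 UMIs a cell and log-transformed, and 23 clusters were made with scanpy 1.11.5 at Leiden resolution 1 (2000 variable genes, 30 components, 15 neighbours). The 171 listed interferon genes and Apoe were left out of clustering. A cluster took a class name with a mean marker score of at least 0.6 and at least 3 markers detected in at least 10% of its cells. Cluster 9 (Retnla, Lyz1, Ear2), with 12, 1 and 27 cells in aneurysm, room air and control, stayed unnamed. The members, lists and markers were chosen with earlier results of these data known.

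UMIs were summed per library and class of at least 25 cells, and given as CPM. A gene was counted with at least 20 UMIs over both libraries and called past 1.5-fold. Ratios carry exact conditional binomial 95% intervals, levels exact Poisson and shares Clopper-Pearson intervals. The free RNA estimate is the median, over markers of other lineages, of their share in the class over their share in the library. Beside roles fixed by list, text names the 3 members of each role with most UMIs, members past 2-fold with an interval excluding 1, and pathway genes chosen alike in macrophage-like cells. Alternatives covered scaling, UMI minimum, fold, free RNA, clustering, class calls, doublets, mitochondrial share and thinning. The code was tested on simulated data. Gene positions came from GENCODE vM21. A listed pathway gene is not reported here.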

Additional observations from a re-analysis of the deposited data

Results flagged for a closer look

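The summed core level, aneurysm over room air, went in opposite directions in different classes, with counting intervals on opposite sides of 1. The ratio was above 1 in mature dendritic cell-like cells (1.88) and monocyte-like cells (1.30). It was below 1 in cDC2-like (0.827), macrophage-like (0.879), neutrophil-like (0.702), endothelial-like (0.622), B-cell-like (0.574), NK-like (0.524) and T-cell-like cells (0.510). The dividing cells of cluster 1, which are no single class, were lowest at 0.437. No free RNA estimate was made for them. With free RNA subtracted, the other ratios stayed on the same side of 1, with B-cell-like cells at 0.765 and NK-like cells at 0.643. With 1 library a group, the difference between classes was not tested.

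Within macrophage-like cells, the same ratio was above 1 in cluster 2 (1.63), the Lyve1 and Folr2 cells, and in cluster 6 (1.08), the Gpnmb and Trem2 cells. It was below 1 in cluster 12 (0.761), the Ccl12 and Clec4b1 cells, and in cluster 5 (0.623), where markers of other lineages were as common as in the whole library. The difference between clusters was not tested.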

How the results depend on the processing

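No direction of the summed core ratios in T-cell-like cells was turned by another scaling, free RNA subtraction, clustering, class call, doublet or mitochondrial setting. The same held for the median member ratios in macrophage-like cells, for which other UMI minimums and leaving out cluster 5 were also tried. The median log2 ratio of members in macrophage-like cells lay between 0.30 and 1.02 for room air over control and between -0.20 and -0.10 for aneurysm over room air. The 25 members higher in room air than in control came to 14 with free RNA subtracted and 15 at 2-fold, and the 8 lower in aneurysm to 2 at 2-fold. The T-cell-like core ratio, aneurysm over room air, was 0.510 and 0.629 when each cell was classed by its own markers. Carrier shares follow the cut and the depth. In macrophage-like cells of aneurysm the share of 7.47% was 16.3% at 2 genes, 4.04% at 4 genes, 15.8% at 2000 UMIs, 52.6% unthinned and 5.08% with another seed. In room air the share of 8.30% was 19.1%, 5.30%, 16.7% and 51.4% under the first 4 of these, and in control the share of 2.58% was 7.10% at 2 genes and 12.6% unthinned. In T-cell-like cells of aneurysm 1.63% was 3.09% at 2 genes, 3.31% at 2000 UMIs and 4.90% unthinned, and in room air 4.79% was 12.1%, 10.4% and 15.9%. The alternatives for T-cell-like cells, the mean of 100 draws and the run without cluster 5 were chosen after seeing the data. No paired analysis was possible because each group is 1 library with no replicate number.

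The 773 kept control cells limit the precision, most of all in classes of under 50 cells. Differences between pools, mice and library preparation cannot be told apart from the groups.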
